A study of Mus musculus with 2 samples.

Results

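A set of 37 genes of the cell junctions and of cell polarity was followed, chosen by symbol: claudins, other tight junction proteins, desmosome and adherens junction components, polarity proteins, and the epithelial splicing regulators Esrp1 and Esrp2. All 37 were present among the 26127 rows of the deposited expression table. The cells were extraembryonic endoderm stem (XEN) cells of the female mouse line PS10, of ICR strain, which are used as a model of the primitive endoderm of the blastocyst. Cells of this single line received, with Lipofectamine RNAiMax, a locked nucleic acid (LNA) oligonucleotide directed at Gata6-AS, the noncoding RNA transcribed beside the endoderm factor gene Gata6, or a control LNA (the sample titles call both siRNA). Both groups had therefore been transfected, and total RNA was sequenced from 1 library of each. No test could be made, and every difference compares 2 libraries rather than 2 treatments. In bulk RNA, fewer cells of a type and less RNA per cell cannot be told apart.

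Tight junctions seal the space between epithelial cells: claudins form the strands, occludin and the junctional adhesion molecules join them, and scaffolds such as the zonula occludens proteins and cingulin tie them to actin. Desmosomes anchor keratin filaments through desmoplakin, plakoglobin and the plakophilins, and adherens junctions couple cadherins to actin through the catenins. The Par, Crumbs and Scribble groups mark the apical and basolateral sides of the cell. In the yolk sac the visceral endoderm is a polarized epithelium, while the parietal endoderm, which XEN cells resemble more, consists of loose migratory cells.

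Levels are in RPKM, a read count divided by gene length and library depth, as the authors deposited them. The spacing of low values put the depth at 1.04e+08 reads for the control and 1.23e+08 for the Gata6-AS LNA library. In the control, 1 RPKM of a 1000 bp gene is then 104 reads (exact 95% Poisson interval 84.98 to 126), and a 0 for such a gene allows up to 0.0290 RPKM there and 0.0244 RPKM in the other library. The targeted RNA, listed as 1010001N08Rik, had 10.1 RPKM in the control and 5.83 RPKM after the Gata6-AS LNA, and Gata6 had 81.9 and 55.7 RPKM. All 15 markers of primitive endoderm and XEN cells were above 1 RPKM on average, with summed levels of 4234 and 3206 RPKM. Visceral endoderm markers summed to 108 and 94.3 RPKM over 10 genes, endothelial markers to 28.1 and 19.9 RPKM over 8 genes, and embryonic stem cell markers to 7.06 and 10.7 RPKM over 10 genes. Such sums rest mostly on a few abundant genes, such as Lama1 (1125 and 828 RPKM), Rbp4 (77.5 and 62.7 RPKM) and Tek (23.3 and 16.2 RPKM). The visceral endoderm marker Ihh had 3.45 and 7.17 RPKM. Of markers averaging at least 1 RPKM, 5 of 15 for XEN cells were higher in the Gata6-AS LNA library. So were 2 of 6 for visceral endoderm and 1 of 3 for endothelium, where 58.0% of all such genes were. Fibroblast feeder markers summed to 0.0473 and 0.0627 RPKM over 10 genes, markers of stratified epithelium to 0.363 and 0.396 RPKM over 8 genes, and the trophoblast markers to 1.09 and 1.78 RPKM over 8 genes, with no gene of these 3 lists at a mean of 1 RPKM.

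Claudin, scaffold and polarity genes held the members that differed most between the libraries, and all of these were higher in the Gata6-AS LNA library. Differences are given on the log2(RPKM + 1) scale, Gata6-AS LNA minus control, which understates the change of low genes. A gene was tested against the size rules where its mean over both libraries reached 1 RPKM. The 37 members were chosen with earlier results of these data known. Of these, 25 passed this filter and 12 did not. Of the 25, 4 (Cldn6, Llgl2, Cgn and Tjp3) were at least 1.5-fold higher, a share of 16.0%, where 3.43% of the 10853 genes tested were. Tjp3 passed the filter through the library in which it was higher, and without it the count was 3 of 24 (chosen after the data were seen). None was 1.5-fold lower, where 1.94% of all genes were. At 2-fold, 1 member, Cldn6, was higher (0.332% of all genes) and none lower (0.451% of all genes). With the median of expressed genes set to 0, the shares of all genes past 1.5-fold were 2.49% higher and 2.40% lower. Tjp3 was then at 0.56, short of 1.5-fold, and Cldn6 at 0.97, short of 2-fold. The 25 had a median difference of 0.16, with 18 above 0 and 7 below, and all tested genes a median of 0.05, with 58.0% above 0.

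**Figure D1:**
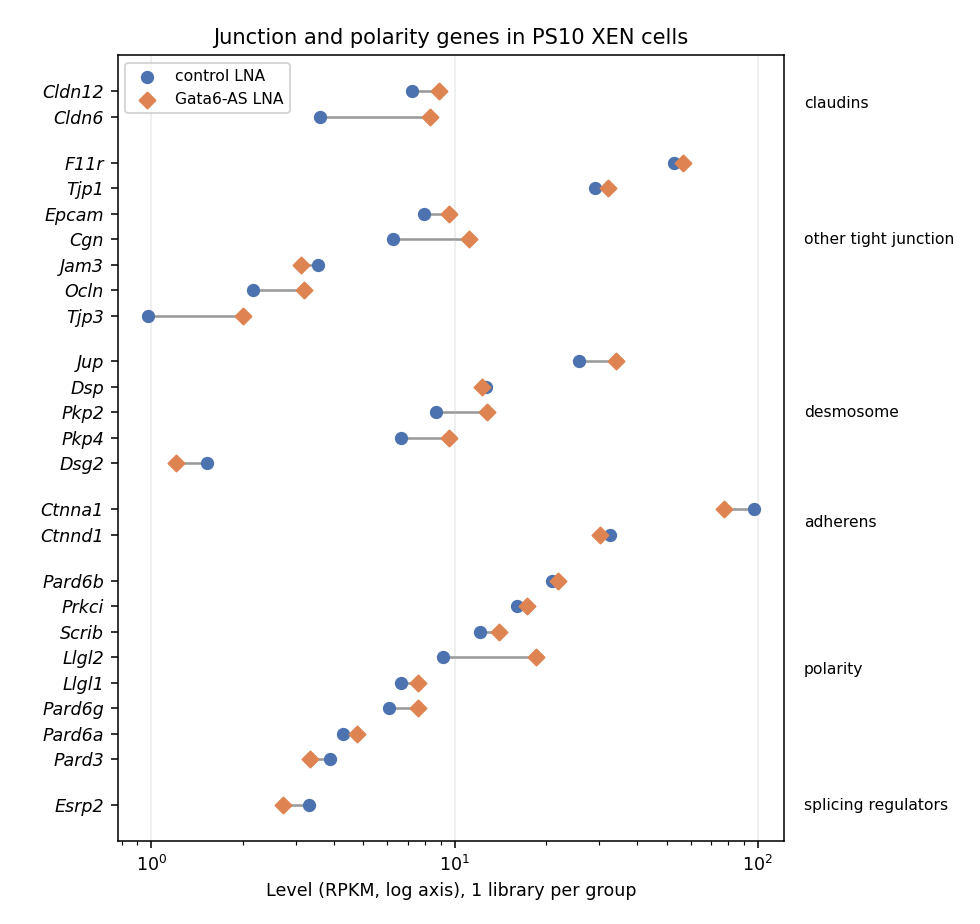
Levels of the 25 members with a mean of at least 1 RPKM, in RPKM on a log axis, with circles for the control LNA library and diamonds for the Gata6-AS LNA library. The longest connecting lines are those of Cldn6 (3.59 to 8.30 RPKM), Tjp3 (0.975 to 2.01 RPKM), Llgl2 (9.16 to 18.5 RPKM) and Cgn (6.27 to 11.1 RPKM).

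Of the 9 claudins, only Cldn6 and Cldn12 were above 1 RPKM on average. Cldn6, a claudin of early embryonic epithelia, had 3.59 RPKM in the control and 8.30 RPKM after the Gata6-AS LNA, which is at least 280 and 768 reads. The second level was 231% of the first (exact 95% interval 201% to 266%, Clopper-Pearson), and the log2 difference of 1.02 lay at percentile 99.7 of all genes tested. Intervals given in this way cover only the error of counting. Reads given as "at least" are the smallest that fit both levels, and with more true reads the interval would be narrower. PCR copies are not independent molecules, and variation between cultures was not measured. Of the embryonic stem cell markers, whose sum was also higher in that library, Pou5f1 was at 0.0556 and 0.0541 RPKM and Sox2 at 0 in both libraries, while Utf1 was at 1.90 and 5.05 RPKM and Nanog at 4.61 and 5.07 RPKM; their part in the Cldn6 value was not tested. Cldn12, a claudin that lacks the usual end for binding scaffold proteins, was at 7.23 and 8.86 RPKM, or 123% of control (117% to 128%). Cldn6 was thus below Cldn12 in both libraries, with the gap narrower in the Gata6-AS LNA library. Over the 9 claudins the summed level went from 10.9 to 17.3 RPKM, and the share of Cldn6 in it from 33.0% to 47.8%.

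Cldn9 lies beside Cldn6 and was near the limit of detection. In the mm9 assembly, Cldn6 occupies chromosome 17 from 23816332 to 23819413 on the plus strand and Cldn9 from 23819552 to 23820985 on the minus strand, so that their ends face each other across 138 bp. Cldn9 was read 4 times in the control and 28 times in the other library (0.0269 and 0.159 RPKM), which is 590% of control with an interval of 206% to 2314%. Both neighbours were thus higher in the Gata6-AS LNA library, Cldn9 from far fewer reads. The longest run of sequence shared by the 2 transcripts in GENCODE M21 (GRCm38) is a coding stretch of 37 bases, shown because reads confined to it could not be assigned to either gene. It lies at chr17:23681149-23681185 on the plus strand in Cldn6 and at chr17:23683528-23683564 on the minus strand in Cldn9.
Run shared by Cldn6 and Cldn9: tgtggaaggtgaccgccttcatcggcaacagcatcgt
No window of 50 bases was common to both transcripts, and 1.48% of the 25-base windows of Cldn9 were found in Cldn6. How far reads running past the end of Cldn6 contribute to Cldn9 was not tested.

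Below the filter were 7 claudins, Cldn9 among them. Cldn1, Cldn3 and Cldn5 were at 0 in both libraries. Cldn4 had a single read in the control and none in the other library (0.00534 and 0 RPKM). Cldn2 had at least 2 reads in each (0.00581 and 0.00489 RPKM), and Cldn7 at least 1 in each (0.0198 and 0.0167 RPKM). For Cldn3, Cldn4 and Cldn7, which are common in mature epithelia, a difference between the libraries was not detectable at this depth.

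Among the other tight junction genes, the cytoplasmic proteins Cgn and Tjp3 had the largest differences. Cingulin, Cgn, which links the junction to the actomyosin cytoskeleton, had 6.27 RPKM in the control and 11.1 RPKM after the Gata6-AS LNA, or 177% of control (169% to 187%, with 2122 and 4471 reads at least), a log2 difference of 0.74. In mm9 the table gives Cgn a span of 125908 bp (chromosome 3, 94464507 to 94590414, minus strand), and this span overlaps BC021767 on the same strand, at 4.11 and 7.21 RPKM, and Selenbp2 on the other strand, at 1.28 and 0.959 RPKM. Reads shared with BC021767, whose level was 176% of control, were not separated. Tjp3, the scaffold ZO-3, stood at 0.975 and 2.01 RPKM, or 206% of control (170% to 250%, with 153 and 374 reads at least), a log2 difference of 0.61. Its row (minus strand of chromosome 10, 80735952 to 80754012) overlaps Apba3 on the other strand by 40 bp, and Apba3 was at 13.8 and 14.6 RPKM.

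The other tight junction members differed less. Tjp1, the scaffold ZO-1 that nearly all epithelia use, was at 29.1 and 32.1 RPKM, or 110% of control (108% to 112%). Its interval lies below that of Tjp3, and both exclude 100%. The log2 difference of Tjp1, 0.13, was at percentile 64.3 of all genes tested, of which 58.0% were above 0. Occludin, Ocln, a tight junction membrane protein, was at 2.17 and 3.19 RPKM, or 147% of control (136% to 160%), a log2 difference of 0.40. Epcam, an adhesion molecule that binds claudins, was at 7.96 and 9.56 RPKM (120% of control, 113% to 128%). Among the junctional adhesion molecules, F11r (JAM-A) was by far the most abundant, at 52.8 and 56.5 RPKM (107%, 105% to 109%). Jam3 was at 3.54 and 3.12 RPKM (88.0%, 80.4% to 96.4%), and Jam2, below the filter, at 0.1003 and 0.0540 RPKM (53.9%, 35.1% to 81.8%, with 61 and 39 reads at least). F11r was thus on the other side of control from Jam2 and Jam3, and it made up 93.5% of the summed level of the 3 genes in the control and 94.7% in the other library.

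**Figure D2:**
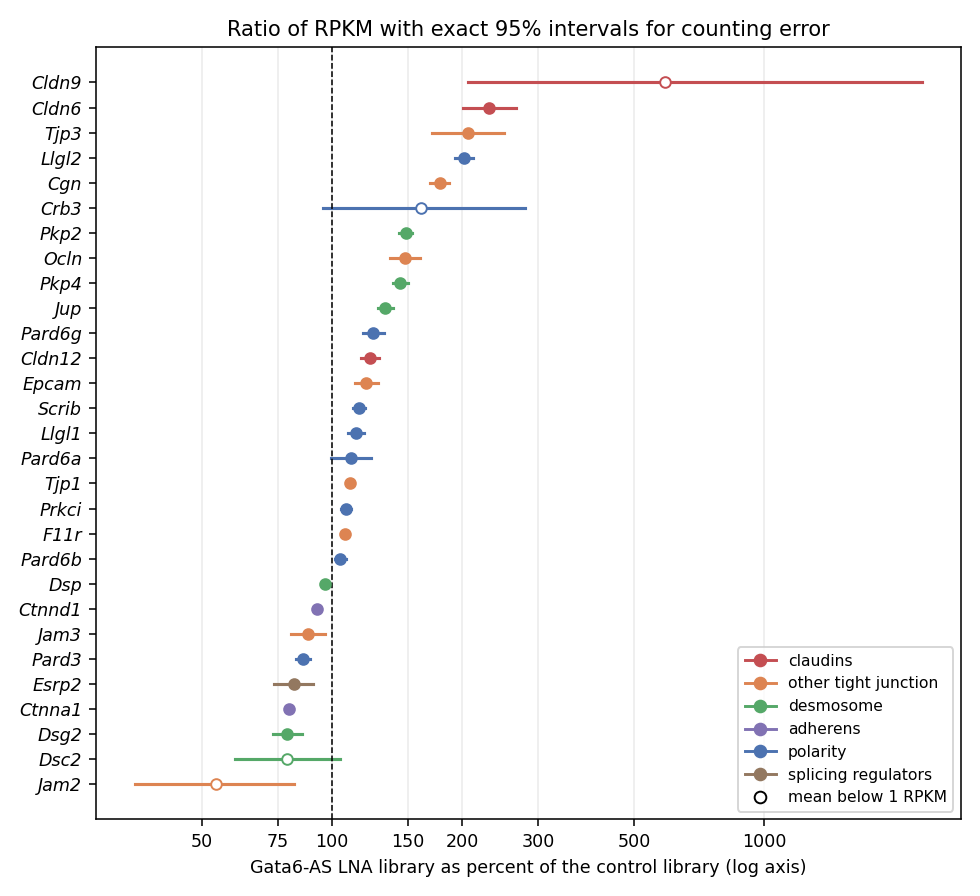
Level in the Gata6-AS LNA library as percent of the control library, on a log axis, for the 29 members with at least 30 recovered reads over both libraries, with bars for the exact 95% interval of counting error and open circles for a mean below 1 RPKM. Cldn9, Cldn6, Tjp3, Llgl2 and Cgn lie to the right of 150% with their whole intervals, and Jam2 is farthest to the left at 53.9%.

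Upstream sequence from RefSeq (GRCm38.p6) is shown for Cldn6, Tjp3 and Cgn because these members were higher together; Llgl2 has no entry there. The windows are chr17:23679115-23679277 on the plus strand for Cldn6, chr10:81291582-81291831 on the minus strand for Tjp3 and chr3:94786483-94786732 on the minus strand for Cgn. Capitals mark the E-box word CAGGTG, which reads CACCTG on the other strand and is known to be bound by repressors of the Snail and ZEB families. They also mark words of the kind that GATA factors bind: AGATAA, whose reverse complement is TTATCT, and TGATAA, whose reverse complement is TTATCA.
Cldn6: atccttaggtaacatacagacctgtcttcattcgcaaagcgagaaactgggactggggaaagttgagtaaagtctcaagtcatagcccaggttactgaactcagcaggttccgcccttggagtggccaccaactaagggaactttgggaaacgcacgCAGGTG
Tjp3: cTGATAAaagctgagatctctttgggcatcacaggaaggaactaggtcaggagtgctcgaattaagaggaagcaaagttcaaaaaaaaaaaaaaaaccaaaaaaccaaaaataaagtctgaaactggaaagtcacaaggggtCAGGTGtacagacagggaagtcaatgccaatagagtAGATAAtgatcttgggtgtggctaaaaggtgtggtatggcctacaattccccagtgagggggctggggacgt
Cgn: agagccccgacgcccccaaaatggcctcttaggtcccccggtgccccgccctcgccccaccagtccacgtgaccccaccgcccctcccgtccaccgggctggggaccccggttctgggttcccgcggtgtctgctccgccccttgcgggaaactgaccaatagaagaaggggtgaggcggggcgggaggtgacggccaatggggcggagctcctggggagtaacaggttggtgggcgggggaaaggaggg
The 250 bases before the start held 1 E-box word in Cldn6, 93 bases before the start. They held 1 in Tjp3, 108 bases before the start, with GATA words 249 and 72 bases before it, and no such word in Cgn. In GENCODE M21 an exon of Cldn6 begins farther upstream, so its E-box word lies in a transcribed stretch there and the window is printed only up to that word. RefSeq had promoters for 24 of the 37 members, at 34 starts, and 13 of these windows held the E-box word, where 17.2% of the 32851 windows in the table do. The 13 windows belong to 11 genes (those of Crb3 overlap). Of these genes, Cldn6 and Tjp3 were past 1.5-fold, and Cldn4, Cldn7 and Crb3 were below the filter. The rest, Pard3, Pard6b and F11r among them, were tested and not past 1.5-fold. Most genes were not: of all genes tested, 3.43% were 1.5-fold higher and 1.94% lower. The GATA words stood in 3 of the 34, where 16.6% of all windows hold one. These are matches of letters, not sites of binding.

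Desmosome genes lay on both sides of control, with no member past 1.5-fold. The plakophilins Pkp2, which joins desmoplakin to the desmosomal cadherins, and Pkp4, a relative found at adherens junctions as well, were at 8.65 and 12.8 RPKM (148% of control, 143% to 153%) and at 6.67 and 9.60 RPKM (144%, 139% to 150%). Plakoglobin, Jup, which serves both desmosomes and adherens junctions, was at 25.7 and 34.2 RPKM (133%, 128% to 138%). On the log2(RPKM + 1) scale these differences were 0.52, 0.47 and 0.40, short of 1.5-fold. Desmoplakin, Dsp, the keratin anchor, was at 12.7 and 12.3 RPKM (96.6%, 94.3% to 98.9%). The desmosomal cadherins were low: Dsg2 was at 1.53 and 1.203 RPKM (78.9%, 72.9% to 85.3%) and Dsc2, below the filter, at 0.201 and 0.159 RPKM (78.9%, 59.7% to 104%). Pkp3, common in surface epithelia, had at least 5 and 6 reads (0.0134 and 0.0135 RPKM). So 3 of the 5 desmosome members tested were above 0 and 2 below, a split close to that of all genes tested, of which 58.0% were above 0.

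The 2 adherens junction members were lower in the Gata6-AS LNA library, which did not hold for adherens genes at large. Of the 11 tested genes listed as other adherens components, 9 were above 0 and 2 below. Of all genes tested, 58.0% were above 0. Ctnna1, alpha-catenin, which binds actin, had the highest level of all members, at 96.9 RPKM in the control against 77.3 RPKM in the other library. That is 79.8% of control (78.1% to 81.4%), with the most negative log2 difference among the tested members, -0.32, at percentile 8.05 of all genes. Ctnnd1, the catenin that keeps cadherins at the membrane, was at 32.7 and 30.1 RPKM (92.2%, 90.6% to 93.8%), a difference of -0.11. From the list of other adherens genes, beta-catenin, Ctnnb1, was at 97.7 and 99.3 RPKM (102%, 100.4% to 103%). Its log2 difference of 0.02 was below the median of all genes and was -0.03 with the median of expressed genes set to 0. E-cadherin, Cdh1, the epithelial cadherin, was at 0.526 and 0.485 RPKM in these cells (92.4%, 77.5% to 110%), below the filter.

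Polarity members were mostly near control, with Llgl2 apart from the rest. Llgl2, a basolateral polarity protein of the Lethal giant larvae family, had 9.16 RPKM in the control and 18.5 RPKM after the Gata6-AS LNA, or 202% of control (192% to 212%, with 2263 and 5432 reads at least). Its log2 difference of 0.94 lay at percentile 99.5 of all genes tested. Its row in mm9 runs from 115685363 to 115717094 on the plus strand of chromosome 11 and overlaps no other gene of the table. The paralog Llgl1 was at 6.67 and 7.58 RPKM (114%, 109% to 119%), and the share of Llgl2 in the sum of both went from 57.9% to 71.0%. Scrib, which acts with them on the basolateral side, was at 12.1 and 14.0 RPKM (116%, 112% to 119%).

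On the apical side, the members of the Par complex lay between 85.8% and 125% of control. Pard3, the scaffold that recruits the complex to junctions, was at 3.89 and 3.34 RPKM (85.8%, 82.7% to 88.9%), the one tested polarity member below 0. Of the adaptors, Pard6b was at 21.0 and 22.0 RPKM (105%), Pard6g at 6.10 and 7.60 RPKM (125%) and Pard6a at 4.29 and 4.76 RPKM (111%, 99.8% to 123%). Prkci, the atypical protein kinase C that phosphorylates Par and Lgl proteins, was at 16.1 and 17.3 RPKM (108%, 105% to 111%). The other atypical kinase gene, Prkcz, from the list of other polarity genes, stood at 1.57 and 4.25 RPKM, or 272% of control (253% to 292%), and its share of the summed level of both kinases went from 8.88% to 19.7%. Crb3, the apical Crumbs protein of epithelia, was below the filter at 0.284 and 0.458 RPKM, with 23 and 44 reads at least. Its interval from these smallest reads, 95.2% to 280%, spanned 100%, and more true reads would narrow it.

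**Figure D3:**
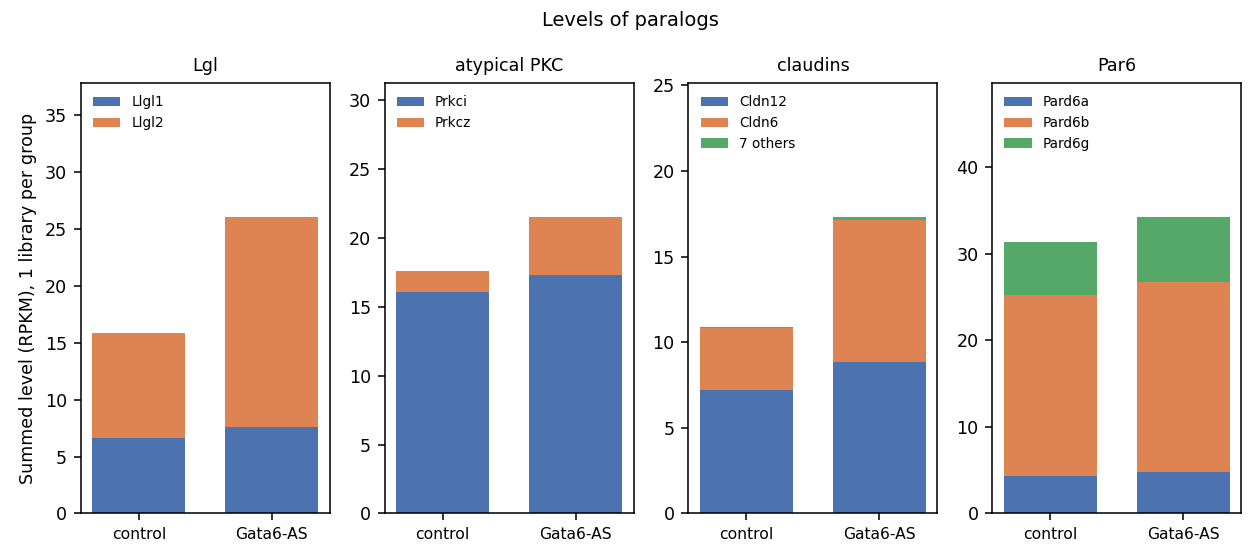
Summed levels in RPKM of 4 gene families in the 2 libraries, stacked by gene (bars start at 0, 1 library per bar). The Llgl2 part goes from 9.16 to 18.5 RPKM and the Prkcz part from 1.57 to 4.25 RPKM, while Llgl1 and Prkci differ by less.

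The splicing regulators were low. Esrp2, which promotes epithelial exon choice, was at 3.32 and 2.71 RPKM (81.5%, 73.5% to 90.4%, log2 difference -0.22), and Esrp1 had at least 7 reads in the control and 4 in the other library (0.0107 and 0.00516 RPKM). Esrp2 overlaps Nfatc3 on the other strand by 219 bp, and Nfatc3 was at 9.53 and 8.86 RPKM. Esrp2 also overlaps 1810019D21Rik on the other strand by 1575 bp, and 1810019D21Rik was at 0.728 and 0.750 RPKM.

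Other genes of the same structures were taken from lists chosen by function, with earlier results of these data known. These genes, too, were more often past 1.5-fold higher than lower. Of 85 such genes in the table, 44 passed the filter, 5 of them (11.4%) were at least 1.5-fold higher and none was 1.5-fold lower, where 3.43% and 1.94% of all genes tested were, with a median log2 difference of 0.04 beside 0.05 for all genes. The 5 were Camsap3, Prkcz, Plekha7, Csda and Amotl2. Camsap3, which holds microtubule minus ends, stood at 5.21 and 14.0 RPKM (269% of control, 257% to 282%, log2 difference 1.28), and Plekha7, which brings it to adherens junctions, at 3.18 and 5.65 RPKM (177%, 168% to 188%). Camsap3 overlaps Xab2 on the other strand by 654 bp, and Xab2 was at 9.65 and 14.3 RPKM. Csda, a junction-associated nucleic acid binding protein that binds ZO-1, was at 50.6 and 79.2 RPKM (157%, 153% to 160%), and Amotl2, an angiomotin, at 49.0 and 74.7 RPKM (152%, 149.96% to 155%). Amotl2, at a log2 difference of 0.60, was at 0.55 with the median of expressed genes set to 0, short of 1.5-fold. The most negative difference in these lists was that of Cab39, a subunit of the polarity kinase LKB1 complex, at 11.2 and 7.46 RPKM (66.7%, 63.9% to 69.7%, log2 difference -0.53).

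The most abundant polarity, desmosome and claudin-named genes of these lists were each less than 1.5-fold from control, as most genes were. Of all genes tested, 3.43% were 1.5-fold higher and 1.94% lower. Cdc42, the GTPase that activates the Par complex, was at 104 and 99.9 RPKM, and Perp, a desmosome-associated membrane protein, at 2.75 and 3.15 RPKM. Of the 15 rows listed as other claudins, 14 were below the filter. The remaining row, under the symbol Cldn25 at 22.5 and 20.7 RPKM on chromosome 16, may not be a classical claudin, since RefSeq gives that symbol as a synonym of Cldnd1.

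**Figure D4:**
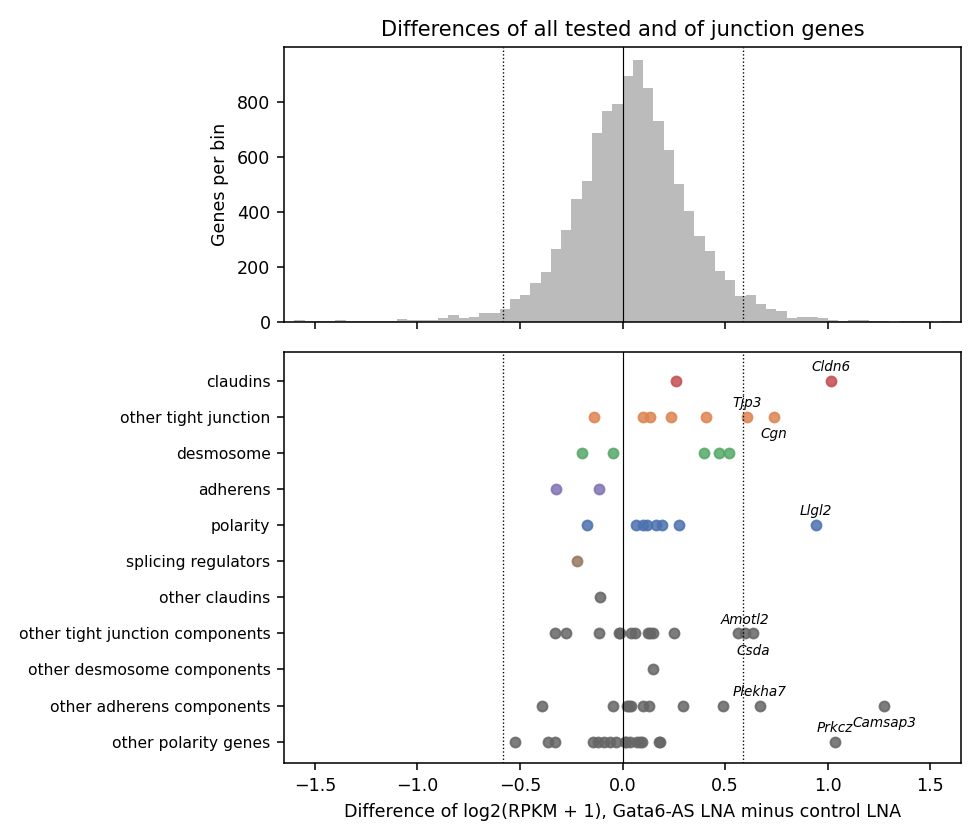
Top, number of genes per bin of the difference of log2(RPKM + 1), Gata6-AS LNA minus control LNA, for the 10853 genes tested (values beyond 1.6 either way are drawn in the end bins); bottom, each tested member by role (coloured) and each tested gene of the other lists (grey), with dotted lines at 1.5-fold. Named points past the right line are Cldn6, Tjp3, Cgn and Llgl2 among the members and 5 other genes, and no point lies past the left line.

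Among transcription factors that act on junction genes, the repressors Snai1 and Zeb1, which passed the filter, were lower. Snai1 stood at 91.8 and 35.3 RPKM (38.5% of control, 37.4% to 39.6%), and Zeb1 at 3.29 and 2.14 RPKM (65.1%, 60.5% to 70.1%). Zeb2 was below the filter, at 0.966 and 0.776 RPKM. Related repressors below the filter went the other way: Snai2 was at 0.537 and 0.701 RPKM (130%, 102% to 167%), and Snai3 had no read in the control and at least 8 in the other library. The epithelial transcription factors Grhl2 and Ovol2 were also below it, at 0.0386 and 0.0222 RPKM and at 0.667 and 0.604 RPKM. Grhl1, below it as well, was at 0.0993 and 0.309 RPKM (311%, 214% to 463%). Klf5, the most abundant of the epithelial factors listed, was at 148 and 145 RPKM. Whether any of these factors has a part in the junction gene values was not tested.

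The authors' deposited table of differences, which lists 2099 genes with p up to 0.07499, held 7 of the 37 members (18.9%, against 8.03% of all rows). Of these, 6 (Cldn6, Cldn9, Tjp3, Cgn, Pkp2 and Llgl2) are listed as higher in the authors' deposited table (4.14% of all rows are) and Jam2 as lower (3.90% of all rows are). Past the filter, 5 of the 25 members were listed as higher in the authors' deposited table and none as lower, where 6.23% and 5.69% of tested genes were. The log2 differences in the authors' deposited table were 0.99 for Llgl2 (p = 0.000316), 0.81 for Cgn (p = 0.00211), 2.41 for Cldn9 (p = 0.00297), 1.09 for Cldn6 (p = 0.00465) and 0.91 for Tjp3 (p = 0.00843). Pkp2 (0.54, p = 0.0467) and Jam2 (-1.02, p = 0.0414) were closer to its limit in the authors' deposited table. The labels used here describe no further libraries, and neither its test nor an adjustment of p is named in the sources used here.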

How the data were processed

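RNA of PS10 XEN cells given a control LNA or a Gata6-AS LNA was sequenced, with 1 library per group by the sample titles. The authors' deposited expression table gives RPKM per the file headers. TopHat and mm9 are named in the submitters' processing notes. Counting tool, annotation and strand use were not given in the sources used here. Per the file headers, the other table the authors deposited has, for 2099 genes, the log2 level per library, a log2 difference and a p-value.

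Computed here, with Python 3.11.15, numpy 2.4.6, pandas 2.3.3 and scipy 1.17.1, was the difference of log2(RPKM + 1) for genes averaging 1 RPKM or more. A symbol on more than 1 row (59 symbols) kept the row with the highest mean, and 10 small RNA rows were left out. Depth came from genes spanning under 3000 bp: for 428 of 977 (control) and 460 of 1001 (Gata6-AS LNA) such genes with 5 to 200 reads, RPKM times span was within 0.01 of a whole number of equal steps. Reads are counts at the gene's span where both libraries give whole numbers there, otherwise the smallest whole numbers giving both RPKM values at one length up to 30000 bp (relative tolerance 3e-07 plus 0.0002 reads), hence "at least". Ratio intervals are exact (Clopper-Pearson) at 95% for these reads, and are too wide where the true reads were more. The floor is 3 reads. The code was tested on simulated data. Promoter words were searched on both strands in RefSeq windows. Members and lists were chosen with earlier results of these data known. Named were all members, genes of the other lists past 1.5-fold (up to 4 per list and direction), the most abundant gene of each list, and Cdh1, Ctnnb1, Gata6, Gata6-AS, Snai1, Zeb1, Zeb2, Grhl2 and Ovol2. Cab39, Grhl1, Snai2, Snai3, Cldn10 and the gene families whose shares are given were picked after their values were seen. One further gene named by this rule is not reported here. Alternatives were other pseudocounts, scalings and filters, and the plain RPKM ratio, and leaving out Tjp3 was added after the data were seen.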

Additional observations from a re-analysis of the deposited data

How the results depend on the processing

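The 4 members at least 1.5-fold higher became 3 with the median of expressed genes set to 0 and with quantile normalization, which left Tjp3 at 0.56 and 0.55. They were also 3 among the 18 members with a mean of 5 RPKM or more, which leaves out Tjp3, and 4 with a pseudocount of 0.1 or 0.5 RPKM, with each library scaled to 1000000 summed RPKM, with no filter and on the plain ratio. None was 1.5-fold or 2-fold lower under any of these. Few genes were: the share of all genes 1.5-fold lower lay between 0.841% (no filter) and 3.15% (plain ratio). At 2-fold lower it lay between 0.188% and 0.802% under the same 2 settings. The share of all genes at least 1.5-fold higher moved as well, from 3.43% as reported to 5.69% with a pseudocount of 0.1 RPKM. It was 6.02% on the plain ratio and 1.44% with no filter. With the median set to 0 it was 2.49%, with quantile normalization 2.56%, and at a mean of 5 RPKM or more 3.62%. A pseudocount of 0.5 RPKM gave 4.32%, and scaling to 1000000 summed RPKM gave 4.39%. The count at 2-fold rests on the scale. It was 1 as reported (0.332% of all genes), 2 with a pseudocount of 0.1 RPKM (0.848%) and 3 on the plain ratio with no pseudocount (0.967%). With the median set to 0 and with quantile normalization it was 0 (0.286% in each). The median difference of members was 0.16 as reported, 0.097 with no filter, which adds the 12 low members, and between 0.11 and 0.22 under the other alternatives. No called gene changed sign. Of 269 single values of 40 genes, 226 moved by less than the distance from the middle to the end of their log2 counting interval. This count includes the values under other filters, which cannot move because a filter leaves each difference as it is. The 43 values that moved farther all came from other pseudocounts and scalings. No paired analysis was possible because each group has 1 library. Depth limits Cldn9, Crb3, Dsc2 and Jam2, and the variation between cultures was not measured.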

Other observations

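Gap junction genes were a further group of cell contact genes measured here. Gja1, a connexin and the most abundant of its family in these cells, had 59.7 RPKM in the control and 84.5 RPKM after the Gata6-AS LNA, or 142% of control (exact 95% interval for counting error, 139% to 144%), a log2(RPKM + 1) difference of 0.49. Gjb5 was at 3.03 and 2.99 RPKM, and the other 10 connexins of the list of 12 were below a mean of 1 RPKM. In the authors' deposited table Gja1 is listed with a log2 difference of 0.59 (p = 0.0368).

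Among low genes outside the main description, Cldn10 was at 0.121 and 0.279 RPKM (230%, 112% to 508%, with 11 and 30 reads at least). It was chosen after its values were seen and has no replicate check.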
